A study of Rattus norvegicus with 50 samples.

Results

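Granzymes and perforin are the cytotoxic proteins that natural killer cells and killer T cells store in secretory granules. The list held 8 rat genes, namely Gzma, Gzmb, Gzmk, Gzmm, Gzmc, Gzmf, Prf1 and Nkg7. They were chosen by name, and their values over the days in these same arrays had led to the choice of the list. A gene was read where a probe set carried its symbol and no other. This held for 7 of the 8 genes, each with 1 probe set, out of 36685 probe sets on the array and 14824 with 1 symbol. Gzmc was seen by no probe set of its own, only by one shared with RGD1563645 and Gzmc-ps2, so no value is given for it. The samples were whole blood from male Wistar rats, drawn 5 times from the tail vein (days 0, 2, 14, 21 and 28) and hybridized to Affymetrix Rat Gene 2.0 ST arrays. In 6 rats, 1 mg of monosodium iodoacetate (MIA), which blocks glycolysis in cartilage cells and is used to produce a joint disease like osteoarthritis, was injected into a knee after the day 0 sample. The 4 naive rats received no injection, so vehicle alone was not tested, and all rats were of 1 strain, with no altered gene named in the labels. The methods state equal group sizes, and the numbers here follow the labels. The array of MIA day 21 replicate 4 was left out throughout, which leaves 49 arrays, 5 MIA rats at day 21 and 6 on each other day.

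A killer cell releases its granules toward a target cell. Perforin, the product of Prf1, opens the target membrane, and granzymes, which are serine proteases, then enter and cleave proteins that lead to cell death. Granzyme B cleaves after aspartate and activates caspases, granzymes A and K are trypsin-like, and granzyme M cleaves after methionine or leucine. Granzymes C and F are known from mouse as members of the granzyme B gene cluster, and Nkg7 is a membrane protein of the granules that takes part in their release.

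The values are log2 signals, so a difference of 1 is a doubling, and signals of different probe sets are not compared. On the left-out array the signals spread with an SD of 1.00 (1.80 to 1.99 for the other 49), and its mean correlation with them was 0.243 (0.920 to 0.954 for the others). A probe set was called dim where its mean lay below 2.26, the median of all probe set means. Gzmf was dim, with a mean of 1.24, Gzmb lay just above this limit at 2.40, and the other 5 measured members lay at 4.57 or higher. Another probe set for Gzmb, shared with LOC100361261, was dim at 1.46. Genes of the Gzmb cluster resemble each other, so the signals of Gzmb and Gzmf may include RNA of a relative, which was not tested.

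In short, Gzma, Gzmk, Prf1 and Nkg7 had higher means at days 21 and 28 than at day 0 in MIA rats and in naive rats alike. Gzmb had higher means too, by smaller amounts in MIA rats, whereas Gzmm and Gzmf stayed near their day 0 means. None of the 7 measured members passed the test of a different change in MIA and naive rats.

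**Figure D1:**
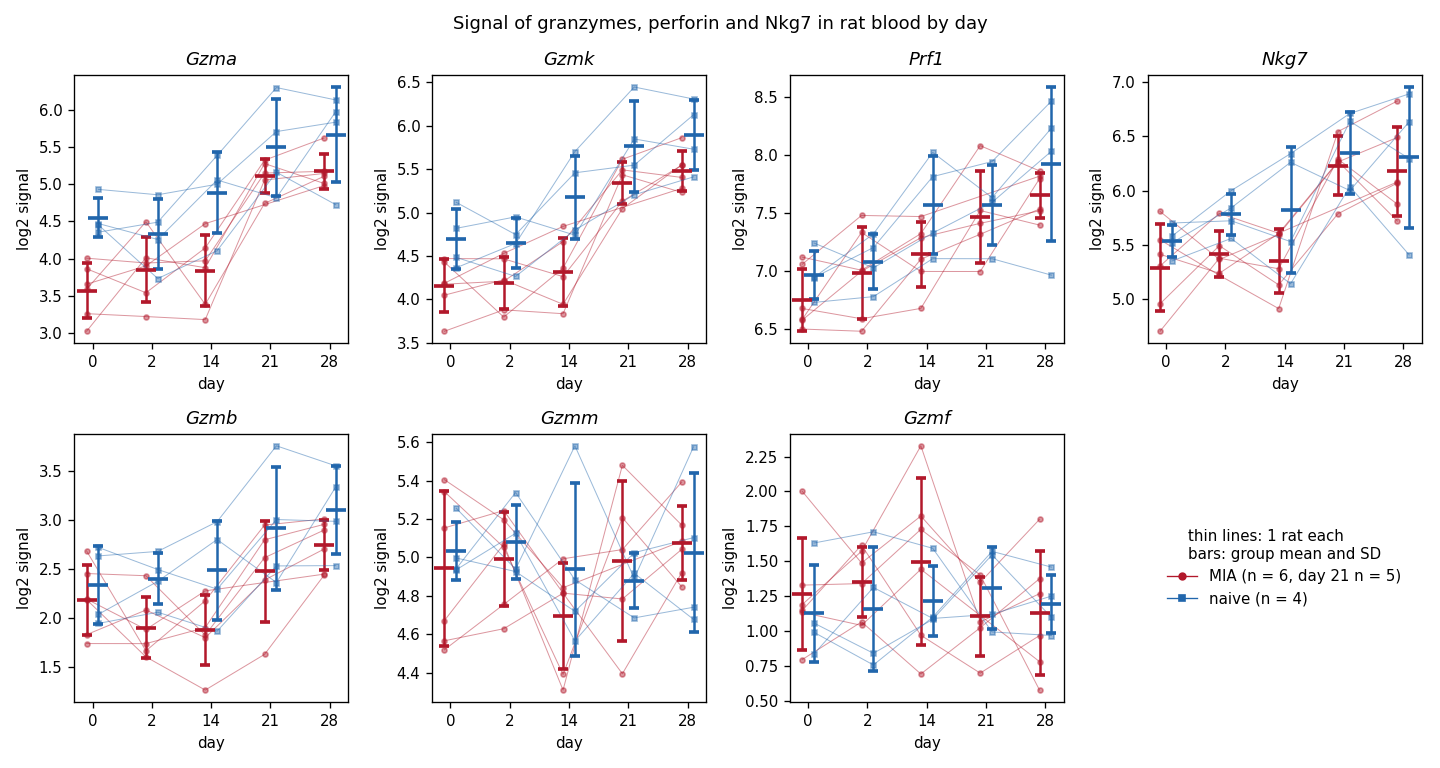
Log2 signal (vertical axis) of the 7 measured members against the day (horizontal axis, days evenly spaced), with 1 thin line per rat in red for MIA and blue for naive rats, and thick bars for the group mean and SD. Gzma and Gzmk climbed between days 14 and 21 in each of the 5 MIA rats measured at both days, while Gzmm and Gzmf show no shared direction.

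The promoters of Gzma, Gzmk, Prf1, Nkg7 and Gzmb, which had higher means in both treatments, are shown with that of Gzmm, which stayed flat. The former genes moved together and Gzmm did not. Each line gives the 250 bases before the start of the gene, 5′ to 3′ on its own strand, from RefSeq on GRCr8, where all 8 genes were found. Gzma lies at chr2:46485697-46485946 on the minus strand, Gzmk at chr2:46582016-46582265 on the minus strand, Prf1 at chr20:29788790-29789039 on the plus strand, Nkg7 at chr1:102981247-102981496 on the plus strand, Gzmb at chr15:34462470-34462719 on the minus strand and Gzmm at chr7:10667257-10667506 on the minus strand. Capitals mark matches, on either strand, to any of 5 motifs described after the sequences.
Gzma: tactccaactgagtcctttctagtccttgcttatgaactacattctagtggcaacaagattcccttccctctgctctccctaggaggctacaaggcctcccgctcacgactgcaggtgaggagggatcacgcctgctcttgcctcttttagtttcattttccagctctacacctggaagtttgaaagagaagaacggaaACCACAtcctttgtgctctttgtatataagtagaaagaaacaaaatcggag
Gzmk: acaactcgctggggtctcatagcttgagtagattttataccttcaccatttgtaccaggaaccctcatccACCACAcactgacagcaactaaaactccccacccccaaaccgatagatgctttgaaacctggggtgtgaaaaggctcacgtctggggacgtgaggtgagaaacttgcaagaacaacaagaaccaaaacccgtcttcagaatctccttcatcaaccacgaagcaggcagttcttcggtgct
Prf1: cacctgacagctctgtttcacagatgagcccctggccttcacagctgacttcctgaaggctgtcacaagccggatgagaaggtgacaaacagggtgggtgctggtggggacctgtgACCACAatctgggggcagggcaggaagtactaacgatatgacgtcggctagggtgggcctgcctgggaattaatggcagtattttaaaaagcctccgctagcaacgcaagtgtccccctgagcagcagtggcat
Nkg7: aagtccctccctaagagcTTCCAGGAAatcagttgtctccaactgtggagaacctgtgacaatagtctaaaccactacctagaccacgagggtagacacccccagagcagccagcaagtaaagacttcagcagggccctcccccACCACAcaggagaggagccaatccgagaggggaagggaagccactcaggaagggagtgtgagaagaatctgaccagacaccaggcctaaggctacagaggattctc
Gzmb: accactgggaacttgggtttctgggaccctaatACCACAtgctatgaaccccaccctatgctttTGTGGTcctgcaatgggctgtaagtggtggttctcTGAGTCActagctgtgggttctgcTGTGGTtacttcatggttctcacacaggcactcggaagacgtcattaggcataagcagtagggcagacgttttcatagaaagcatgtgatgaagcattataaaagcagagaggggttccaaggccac
Gzmm: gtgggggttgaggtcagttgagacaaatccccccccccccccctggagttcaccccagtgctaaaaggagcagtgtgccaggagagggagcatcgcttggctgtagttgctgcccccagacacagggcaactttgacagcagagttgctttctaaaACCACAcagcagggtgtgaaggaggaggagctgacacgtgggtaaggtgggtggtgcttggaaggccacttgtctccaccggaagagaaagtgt

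The motifs searched were TGTGGT (bound by RUNX factors), AGGTGTGA (T-box factors), TGANTCA (AP-1), TTCCNGGAA (STAT factors) and GCCACGTG (E-box factors), where N is any base. RUNX and T-box factors, among them Runx3 and Tbx21, are known to control cytotoxic genes in mouse. The RUNX letters occurred in the windows of 8 of 8 genes, 14 times in all, and in 14.5% of the 33469 windows of the same length in the table. They were present in Gzmm and Gzmf as well as in the genes with higher means, so they do not separate these genes. In Gzma the single match was TGTGGT on the reverse strand, printed above as ACCACA, and began 51 bases before the start. In Prf1 it began 134 bases before the start and in Nkg7 106 bases before it. The AP-1 letters occurred in Gzmb alone of the 8, in 6.34% of all windows, and the STAT letters in Nkg7 alone, in 1.07% of all windows. The T-box and E-box letters were in none of the 8 windows and in 0.959% and 0.896% of all windows. No other gene of the RefSeq table lay between Gzma and Gzmk on chromosome 2, while Gzmb, Gzmc and Gzmf lay on chromosome 15. A match describes letters and is no measured binding site, and windows of related genes are not independent.

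Gzma, the trypsin-like granzyme of killer cells, had the largest difference from day 0 among the members in MIA rats. In MIA rats its lowest, median and highest signals were 3.02, 3.62 and 4.00 at day 0, 3.22, 3.92 and 4.49 at day 2, and 3.18, 3.92 and 4.47 at day 14. They were 5.28, 5.06, 5.15, 4.74 and 5.33 in the 5 rats of day 21, and 4.98, 5.13 and 5.62 at day 28. Every MIA rat at days 21 and 28 therefore lay above every MIA rat at day 0, and the levels of days 2 and 14 overlapped those of day 0. In the 4 naive rats Gzma read 4.36, 4.93, 4.45 and 4.47 at day 0, and 4.49, 4.86, 3.73 and 4.26 at day 2. It read 5.39, 5.00, 4.10 and 5.06 at day 14, 6.30, 5.71, 5.16 and 4.82 at day 21, and 6.14, 5.84, 4.73 and 5.98 at day 28. Each naive rat ended above its own day 0, by 0.27 to 1.78, but the ranges of the groups overlapped because replicate 3 at day 28 and replicate 4 at day 21 were lower than the highest day 0 value. The mean change in MIA rats was 1.55 (SE 0.26) at day 21 and 1.61 (SE 0.25) at day 28, a fold of 2.92 and 3.05. In naive rats it was 0.95 (SE 0.30) and 1.12 (SE 0.30), a fold of 1.93 and 2.17.

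Gzmk, the other trypsin-like granzyme and the neighbour of Gzma, followed the same course. Its lowest, median and highest signals in MIA rats were 3.63, 4.18 and 4.47 at day 0, 3.79, 4.22 and 4.53 at day 2, and 3.83, 4.31 and 4.84 at day 14. At day 21 they were 5.44, 5.61, 5.49, 5.05 and 5.13, and at day 28 the lowest, median and highest were 5.23, 5.47 and 5.86. The naive rats read 4.36, 4.82, 4.48 and 5.12 at day 0, 5.70, 4.74, 4.80 and 5.46 at day 14, 6.45, 5.85, 5.21 and 5.55 at day 21, and 6.31, 5.73, 5.41 and 6.13 at day 28. In both treatments all values of days 21 and 28 lay above all values of day 0. The mean changes were 1.19 (SE 0.21) and 1.32 (SE 0.20) in MIA rats (a fold of 2.28 and 2.50). In the naive group they were 1.07 (SE 0.24) and 1.20 (SE 0.24).

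Prf1, which encodes perforin, had higher means than day 0 at days 21 and 28. In MIA rats the lowest, median and highest signals were 6.50, 6.63 and 7.12 at day 0, 6.48, 7.00 and 7.48 at day 2, 6.68, 7.20 and 7.47 at day 14, and 7.40, 7.67 and 7.87 at day 28. The 5 MIA rats of day 21 read 7.32, 7.52, 7.41, 7.00 and 8.08. Day 28 lay wholly above day 0 in MIA rats, and day 21 overlapped it through replicate 5. In naive rats Prf1 read 6.95, 7.24, 6.73 and 6.95 at day 0, 7.82, 7.33, 7.11 and 8.03 at day 14, 7.95, 7.59, 7.11 and 7.64 at day 21, and 8.47, 8.04, 6.97 and 8.24 at day 28. Replicate 3 stayed lowest of the naive rats on each of these days. Prf1 was above the rat's own day 0 at day 14 in 6 of 6 MIA rats, in 1 of them by only 0.00095, and in 4 of 4 naive rats. The mean changes were 0.71 (SE 0.21) at day 21 and 0.90 (SE 0.20) at day 28 for MIA, and 0.60 (SE 0.25) and 0.96 (SE 0.25) for naive rats.

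Nkg7, the granule membrane protein, had in MIA rats a lowest, median and highest signal of 4.71, 5.36 and 5.81 at day 0, and of 5.72, 6.07 and 6.82 at day 28. At day 21 the MIA rats read 6.29, 6.54, 6.27, 5.79 and 6.26, so that 4 of 5 lay above the highest day 0 value and replicate 5 lay just under it, and day 28 overlapped day 0 as well. The naive rats read 5.58, 5.70, 5.35 and 5.52 at day 0, 6.71, 6.64, 6.04 and 6.00 at day 21, and 6.89, 6.29, 5.41 and 6.63 at day 28. Naive day 21 lay wholly above naive day 0, and naive day 28 overlapped it through replicate 3. The mean changes at days 21 and 28 were 0.94 (SE 0.22) and 0.89 (SE 0.21) for MIA, and 0.81 (SE 0.26) and 0.77 (SE 0.26) for naive rats.

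Gzmb, the caspase-activating granzyme, had a signal close to the dim limit. In MIA rats its lowest, median and highest values were 1.74, 2.19 and 2.69 at day 0, 1.61, 1.81 and 2.43 at day 2, 1.27, 1.87 and 2.28 at day 14, and 2.44, 2.80 and 3.01 at day 28. The day 21 values of MIA rats were 2.39, 2.80, 2.62, 1.63 and 2.95, and those of naive rats were 3.76, 3.01, 2.53 and 2.36, after 2.64, 2.72, 1.95 and 2.04 at naive day 0. Naive rats read 3.55, 2.99, 2.54 and 3.34 at day 28. The ranges of every later day overlapped that of day 0 in both treatments. The mean change at day 28 was 0.56 (SE 0.23) in MIA and 0.77 (SE 0.28) in naive rats, and 6 of 6 and 4 of 4 rats were above their own day 0.

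Gzmm, the granzyme that cleaves after methionine, did not share this course. Its MIA values were 4.52, 4.91 and 5.40 (lowest, median, highest) at day 0 and 4.85, 5.06 and 5.39 at day 28, and 5.21, 5.48, 4.78, 4.40 and 5.04 at day 21. Naive values were 5.26, 5.00, 4.94 and 4.94 at day 0 and 5.58, 5.10, 4.74 and 4.68 at day 28. At day 28, 3 of 6 MIA rats and 2 of 4 naive rats were above their own day 0, with mean changes of 0.13 (SE 0.18) and −0.01 (SE 0.22). The dim Gzmf, a granzyme of the Gzmb cluster, read between 0.58 and 2.33 over all 49 arrays, and its mean changes at day 28 were −0.14 (SE 0.22) in MIA and 0.07 (SE 0.27) in naive rats.

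**Figure D2:**
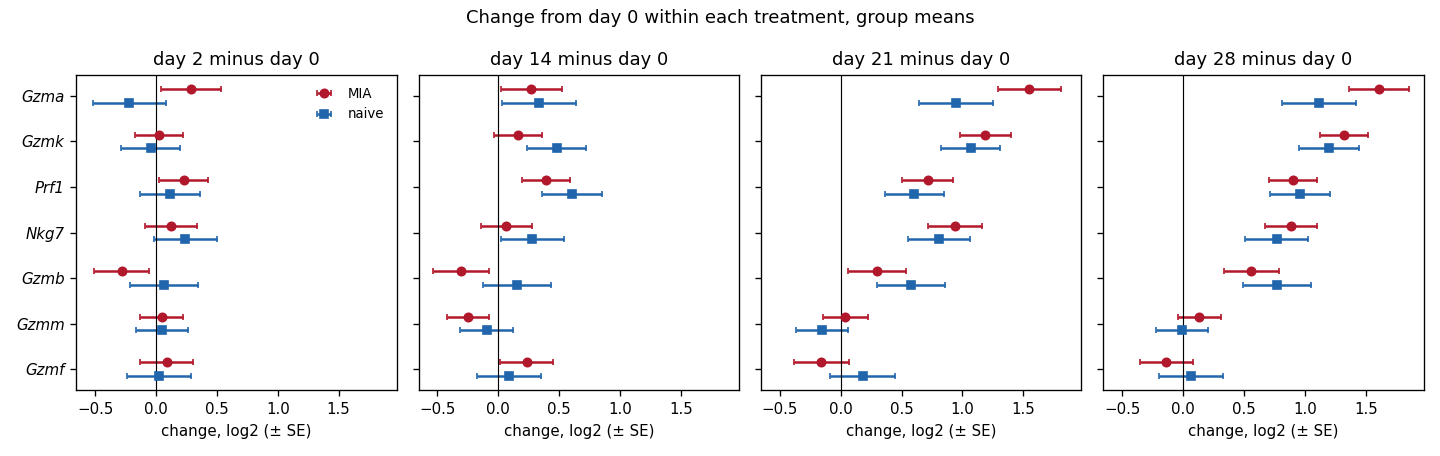
Mean change from day 0 in log2 units (horizontal axis, bars are ± SE) for each member (rows) at days 2, 14, 21 and 28, with MIA rats in red and naive rats in blue. At day 28 the means of Gzma, Gzmk, Prf1 and Nkg7 were between 0.77 and 1.61 in both treatments, and those of Gzmm and Gzmf between −0.14 and 0.13.

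Changes from day 0 within a treatment are given as a description, because these contrasts led to the choice of the members. The word called is used where limma's p, adjusted over all 36685 probe sets by the Benjamini-Hochberg method, was under 0.05. At MIA day 21, 3 of 7 members were called higher (Gzma, Gzmk and Nkg7), where 0.128% of all probe sets were. At MIA day 28, 4 of 7 were (with Prf1), where 2.39% of all were. At naive day 21 only Gzmk was called, where 0.0382% of all were, and this call was lost when MIA replicate 3, MIA replicate 6 or any 1 of the 4 naive rats was left out. Those fits called 1 to 10 of all 36685 probe sets higher at this day, against 14 in the full fit. At naive day 28, Gzma, Gzmk and Prf1 were called, where 1.16% of all were, with 0 members called without naive replicate 1, and 1 without replicate 2 or without replicate 4. Of all probe sets, 175, 256 and 72 were called higher at naive day 28 in these fits, in this order, against 425 in the full fit. No member was called lower on any day. Of all probe sets, 0.537% and 1.87% were called lower at MIA days 21 and 28, and 0.294% and 0.886% at naive days 21 and 28. At days 2 and 14 it was 0% in both treatments. None of the members was called at days 2 and 14, where 0% of all probe sets were called higher after MIA, and 0% and 0.00273% in the naive group. At these days the count of members with an unadjusted p under 0.05 was 0 of 7, except for 1 at naive day 14, against 5.65% and 6.65% of all probe sets after MIA and 5.08% and 6.9% in the naive group. The ranges of the later day and day 0 were apart for 2 members at MIA day 21 (1.91% of all probe sets), 3 at MIA day 28 (3.47%), 2 at naive day 21 (5.82%) and 1 at naive day 28 (8.26%). With the array of MIA day 21 replicate 4 put back, 0 members were called at either day in either treatment. Among all 36685 probe sets, 21 and 1 were then called higher at MIA days 21 and 28. At naive days 21 and 28 it was 0 and 2. With that array kept but each array weighted by its quality, the member counts were again 3, 4, 1 and 3. Of all probe sets, 249, 2361, 19 and 622 were called higher in the weighted fit. Blood is a mixture, so more killer cells and more RNA per cell cannot be told apart.

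The steps between neighbouring days were taken within each rat. Between days 14 and 21, in MIA rats, Gzma was higher by 1.40 ± 0.29 (SD, n = 5), Gzmk by 1.13 ± 0.32, Nkg7 by 0.92 ± 0.42 and Gzmb by 0.68 ± 0.21, each in 5 of 5 rats. Prf1 was higher by 0.39 ± 0.39, in 4 of 5 rats. The naive rats differed by 0.61 ± 0.58 for Gzma and 0.59 ± 0.44 for Gzmk over this week (SD, n = 4), after 0.55 ± 0.36 and 0.52 ± 0.54 between days 2 and 14. Prf1 of naive rats was higher by 0.49 ± 0.20 between days 2 and 14, in 4 of 4 rats, and by 0.00 ± 0.28 between days 14 and 21. From day 21 to day 28 the mean steps of Gzma, Gzmk and Nkg7 lay between −0.04 and 0.18 in both treatments, smaller than their SD. Gzmb was higher over these days by 0.32 ± 0.29 in MIA rats, in 5 of 5, and Prf1 by 0.36 ± 0.34 in naive rats, in 3 of 4. Whether the steps differ between treatments was not tested.

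The comparison of the study is MIA against naive rats. The members were chosen on their values over the days, not on this difference, but it is formed from the same values. The change from day 0 in MIA rats minus that in naive rats was tested with limma for each day and over the 4 days together. The fit compared group means and did not pair the days of a rat, so its SEs and intervals are not those of within-rat changes. No member was called on any day or jointly, where 0% of all probe sets were called, and 0 of 7 members had an unadjusted p under 0.05 in any of these tests, against 5.61%, 4.22%, 3.6% and 4.06% of all probe sets at days 2, 14, 21 and 28 and 4.67% jointly. For Gzma the difference in change was 0.60 at day 21 (95% confidence interval −0.20 to 1.40, adjusted p = 0.9999) and 0.49 at day 28 (−0.29 to 1.28, adjusted p = 0.9997). On the linear scale its sign turned, to −2.33 and −6.14 signal units. For Gzmk at day 28 it was 0.12 (−0.51 to 0.76), for Nkg7 0.12 (−0.55 to 0.79), for Gzmm 0.14 (−0.42 to 0.70), for Prf1 −0.06 (−0.70 to 0.58), for Gzmb −0.21 (−0.93 to 0.52) and for Gzmf −0.20 (−0.89 to 0.49). The joint test over 4 days gave an unadjusted p of 0.298 for Gzma and between 0.604 and 0.838 for the other 6. The widest upper bound, 1.40 for Gzma at day 21, is more than a doubling, so equal changes are not shown.

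**Figure D3:**
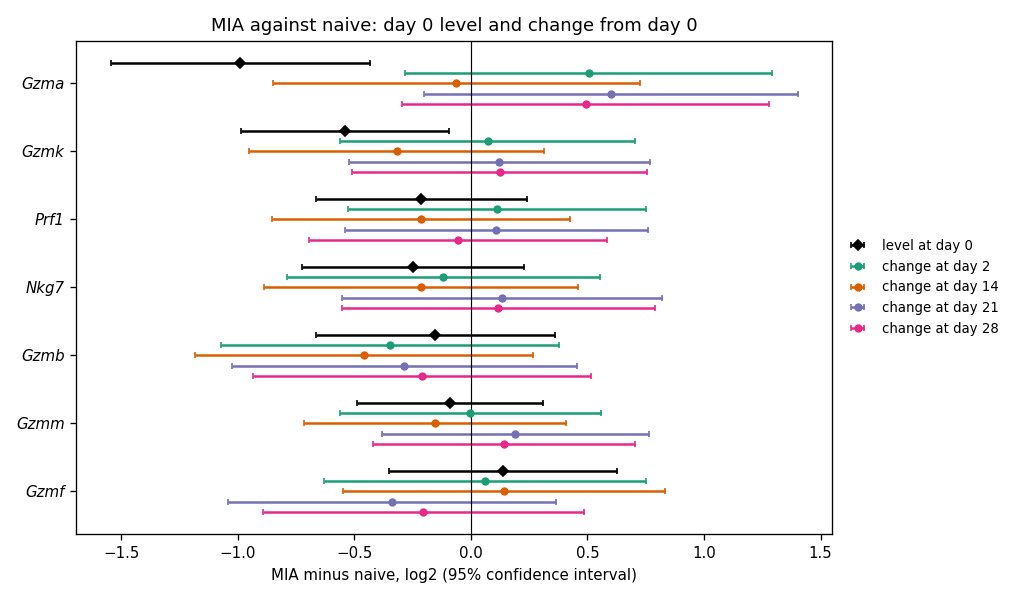
MIA minus naive in log2 units (horizontal axis) for each member (rows), as the level at day 0 (black) and as the change from day 0 at each later day (colours), with 95% confidence intervals. The interval of the level at day 0 lies below 0 for Gzma and Gzmk, and each interval of a change holds 0.

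Before injection, the MIA rats already had less Gzma signal than the naive rats. The highest of the 6 MIA values at day 0, 4.00, lay below the lowest of the 4 naive values, 4.36, and 0.739% of all probe sets had ranges apart in this comparison. The difference was −0.99 (SE 0.28, 95% confidence interval −1.55 to −0.43, unadjusted p = 0.000857), and after adjustment over all probe sets it was not called by limma (adjusted p = 0.867). Gzmk was lower by 0.54 in the same sense (a difference of −0.54, 95% confidence interval −0.99 to −0.09, unadjusted p = 0.0193, adjusted p = 1.000). These were 2 of 7 members with an unadjusted p under 0.05, against 4.24% of all probe sets, and the other 5 differed by −0.25 to 0.14. The count was 1 of 7 without MIA replicate 1, naive replicate 2 or naive replicate 4 and with all 50 arrays. On the linear scale it was 0 of 7. Of all 36685 probe sets, 1479, 1786, 1569, 885 and 1717 had such a p in these fits, in this order. Because day 0 is the reference of each change, a lower start in MIA rats enters every difference in change with the opposite sign.

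The difference in level on later days was added after the values were seen. For Gzma, MIA minus naive was −0.48, −1.05, −0.39 and −0.50 at days 2, 14, 21 and 28, below 0 on each of them as it was before injection. For Gzmk it was −0.47, −0.86, −0.42 and −0.42. At day 14, Gzma, Gzmk and Gzmb had an unadjusted p under 0.05 (0.000431, 0.00037 and 0.0205), where 5.36% of all probe sets did, and at day 14 none was called by limma (adjusted p = 0.876, 0.876 and 0.895). At day 2 it was 1 of 7 (Gzmk, 6.23% of all probe sets), and at days 21 and 28 it was 0 (4.58% and 4.03%). Without naive replicate 3 the counts at days 2, 14, 21 and 28 were 3, 5, 2 and 4 of 7. Of all 36685 probe sets, 2413, 1746, 2017 and 1273 had such a p in that fit. On the linear scale the counts were 0, 2, 2 and 3, against 2413, 1818, 1730 and 1753 of all probe sets. With all 50 arrays they were 0, 3, 3 and 0, against 1348, 1085, 3307 and 680. Naive replicate 3 read 4.10 for Gzma at day 14, within the MIA range, so the ranges overlapped. The MIA means of these genes thus stayed under the naive means at days 21 and 28.

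Each rat was bled 5 times, which allows its level to be followed. After the mean of each group was removed, the share of the remaining variance that lay between rats was 0.52 for Prf1, 0.46 for Gzmb, 0.33 for Gzma, 0.31 for Nkg7, 0.28 for Gzmk, 0.20 for Gzmf and 0.09 for Gzmm. Naive replicate 3 had the lowest mean deviation of the 10 rats for Gzma (−0.55), Prf1 (−0.48), Gzmb (−0.46), Nkg7 (−0.46) and Gzmk (−0.40). Naive replicate 1 had the highest for Gzmb (0.47), Gzma (0.35), Nkg7 (0.35), Gzmk (0.26) and also Gzmm (0.26). For Gzmm the lowest was MIA replicate 5 (−0.27). These are deviations of 10 rats and carry no test.

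The members fell into a group that varied together and others that did not. Over the 49 arrays, Pearson's r between Gzma and Gzmk was 0.91, between Gzmk and Nkg7 0.88, between Gzma and Nkg7 0.87, between Gzma and Gzmb 0.83 and between Gzma and Prf1 0.82. After the group means were removed, these were 0.62, 0.76, 0.72, 0.73 and 0.68. Gzmm had r between 0.17 and 0.34 with these 5 genes, and the dim Gzmf had r between −0.29 and −0.23 with them. The arrays share rats, days and the quantile normalization, so the coefficients are a description over 49 arrays.

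**Figure D4:**
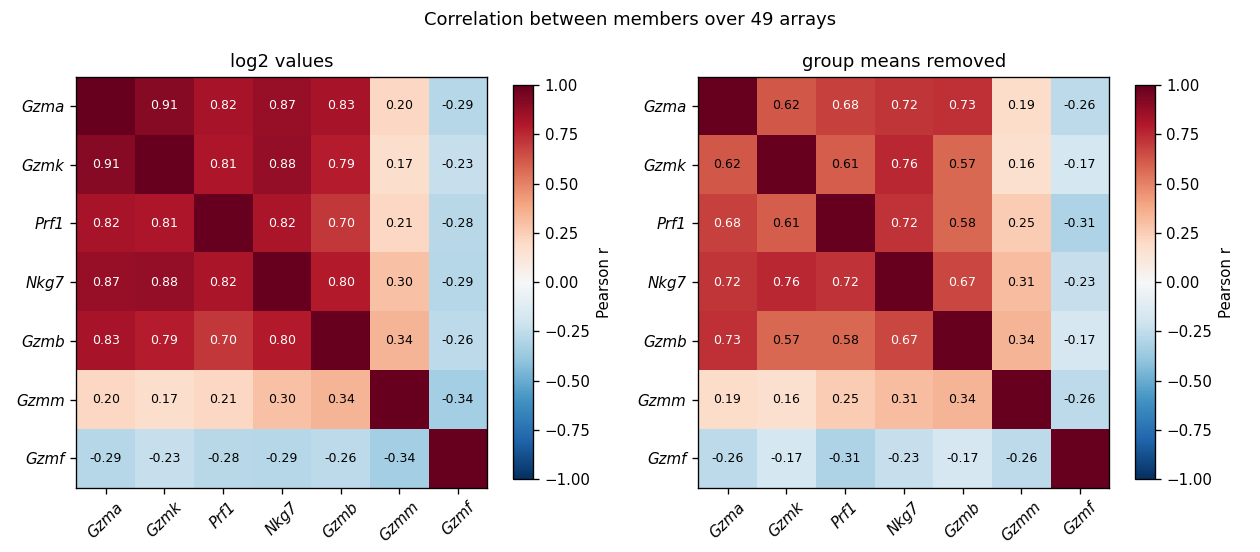
Pearson's r between members (rows and columns) over 49 arrays, for the log2 values on the left and after removal of the 10 group means on the right, with the colour from −1 to 1. Gzma, Gzmk, Prf1, Nkg7 and Gzmb form a block with r from 0.70 to 0.91 on the left and 0.57 to 0.76 on the right, and Gzmm and Gzmf lie outside it.

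The mean of the 6 members that were not dim, each standardized, was compared with the other probe sets of 1 symbol. Symbols made of LOC or RGD and a number were left out. The 10 genes most like it over the 49 arrays were Klrc1 (r = 0.76), Ncr1 (0.75), Klrb1a (0.74), Ccl5 (0.73), Il18rap (0.73), Ppt1 (0.72), Ccl3 (0.71), Tbx21 (0.71), Klrd1 (0.71) and Clec2gl1 (0.70). Klrc1, Ncr1, Klrb1a and Klrd1 encode receptors of natural killer cells, Ccl5 and Ccl3 are chemokines, Il18rap is a chain of the interleukin 18 receptor and Tbx21 is the factor T-bet. After the group means were removed, the r of these 10 genes lay between 0.25 (Il18rap) and 0.53 (Tbx21), and other genes were nearest. These were Cdin1 (0.73), Rplp2 (0.71), Rps23l1 (0.69), Rpl7 (0.68) and Arl2 (0.68). They were followed by 3 probe sets of Rpl39 (0.67 each), Exosc5 (0.67) and Rpl24 (0.67). Most of the nearest were genes of ribosomal proteins. No gene was in both sets of 10. The median r over all probe sets was −0.02 before and 0.03 after removal of the group means.

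The other genes of the granule pathway were counted at day 28 in lists chosen with earlier results known, and 2.39% of all probe sets were called higher at this day in MIA rats and 1.16% in naive rats. These shares are the background for the counts of genes called higher that follow, in the lists and in the cell markers. A fit of only the 18343 probe sets that were not dim called 1365 higher in MIA and 676 in naive rats. The background is therefore higher for lists without dim genes. Of 15 genes for granule content, traffic and release, none was dim. Of these genes, 5 were called higher in MIA rats (2.39% of all) and 3 in naive rats (1.16%), and none was called lower. The medians of their changes were 0.30 and 0.26, against −0.02 and −0.01 over all probe sets and 0.14 and 0.09 over those not dim. Srgn, the proteoglycan serglycin that packs granzymes in the granule, changed by 0.42 (SE 0.08, adjusted p = 0.00179 from limma) and 0.59 (SE 0.10, adjusted p = 0.00153) in MIA and naive rats. Rab27a, which docks granules at the membrane, changed by 0.38 (SE 0.11) and 0.76 (SE 0.13), and the lysosomal membrane protein gene Lamp2 by 0.42 (SE 0.12) and 0.59 (SE 0.14), all called. Unc13d and Stx11, which prime and fuse granules, had changes of 0.39 and 0.24 in MIA and 0.05 and 0.48 in naive rats, not called. Ctsw, a cathepsin of killer cells, had 0.13 and 0.22, not called.

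Of 6 serpins, protease inhibitors, only Serpinb9, the intracellular inhibitor of granzyme B, was called, at 0.47 (SE 0.12, adjusted p = 0.0205) in MIA and 0.89 (SE 0.15, adjusted p = 0.00153) in naive rats. Of 9 granzyme substrates and uptake genes, only Casp8, the initiator caspase, was called, at 0.41 and 0.57. Of 10 death ligands and effector cytokines, 2 were called higher in MIA rats, Ltb and the chemokine Ccl3 (0.54, SE 0.15), and 0 in naive rats, where Faslg, the death ligand, had 0.50 (SE 0.22) and Tnf 0.56 (SE 0.19) without passing. Ifng was dim. Of 8 transcription factors and cytokine receptors of cytotoxic cells, 3 were called in MIA rats (Zeb2, Stat4 and Il18rap) and 4 in naive rats (with Tbx21). Stat4, which acts below the interleukin 12 receptor, changed by 0.62 (SE 0.15) and 0.86 (SE 0.19), and Il18rap by 0.88 (SE 0.17) and 1.11 (SE 0.21). Of 10 related granzyme and mast cell proteases, 8 were dim and 0 were called. With the left-out array put back, 0 genes of these lists and of the marker lists that follow were called at day 28 in either treatment. Of all 36685 probe sets, 1 was then called higher and 3 lower in MIA rats, and 2 higher and 0 lower in naive rats. In the difference between MIA and naive changes at day 28, 0 genes of these lists were called, where 0% of all probe sets were.

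Markers of the cells that hold these granules were measured beside the members. Of 18 natural killer cell markers, 5 were dim (Klrb1, Klre1, Klri2, Cd160 and Kir3dl1). In MIA rats 4 were called higher at day 28, and in naive rats 5, against 2.39% and 1.16% of all probe sets. The medians of the 18 were 0.42 and 0.62, against −0.02 and −0.01 over all probe sets and 0.14 and 0.09 over those not dim. Ncr1, an activating receptor, changed by 1.04 (SE 0.21) and 1.16 (SE 0.26), and Klrc1 by 0.94 (SE 0.24) and 1.14 (SE 0.29). The mean level of the 18 markers on an array went from 3.70 to 3.93 at MIA day 0 to 4.12 to 4.51 at MIA day 28, and from 3.77 to 4.01 to 4.32 to 4.69 in naive rats, with no overlap between the days. Over 49 arrays it had r = 0.80 with the mean of the members, and 0.47 after the group means were removed. The missing overlap was not particular to these markers. Mean levels of the monocyte and erythroid markers were also apart between days 0 and 28 in both treatments. So were those of the granule release, death ligand and transcription factor lists, and those of T cell markers in naive rats only. Of 16 T cell markers, among them Cd3e, Cd4 and Cd8a, none was dim and 0 were called in either treatment, with medians of 0.43 and 0.34, and their mean level had r = 0.24 with the members, and 0.20 after the group means were removed. The part of changed cell numbers in the members' values was not tested.

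Markers of other blood cells were counted at day 28 too. Of 11 neutrophil markers, 3 were called higher at MIA day 28 and 2 at naive day 28 (2.39% and 1.16% of all), with medians of 0.57 and 0.53. Of 9 erythroid markers, 4 and 2 were called lower, where 1.87% and 0.886% of all probe sets were, with medians of −0.62 in both, and their mean level on an array went from 8.93 to 9.58 at MIA day 0 to 8.05 to 8.90 at MIA day 28. The erythroid mean had r = −0.43 and the neutrophil mean r = 0.40 with the members, and 0.06 and 0.13 after the group means were removed. Of 7 monocyte markers, 2 and 1 were called higher (2.39% and 1.16% of all), of 5 B cell and 5 platelet markers 0, and of 9 basophil and mast cell markers 7 were dim and 0 were called. The mean level of the monocyte markers on an array lay from 6.47 to 6.91 at MIA day 0 and from 6.98 to 7.39 at MIA day 28. In naive rats it lay from 6.39 to 6.98 at day 0 and from 6.99 to 7.28 at day 28. Irf8 was the single measured marker of plasmacytoid dendritic cells and was not called. Their part in the members' values was not tested.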

How the data were processed

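Blood of 10 rats was measured on 50 arrays, 1 per sample. The authors subtracted the background, normalized by quantiles and deposited log2 signals per probe set. The submitters' processing notes name oligo 1.36.1; how probes were summarized and the genome build are not given in the sources used here. Symbols came from the platform table, and 14670 were matched to RefSeq names for GRCr8, none changed. Replicates are separate rats. The array of MIA day 21 replicate 4 was left out by the rule for this gene list.

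The members, lists, motifs and named genes were chosen with earlier results of these data known. Named genes were the members, a fixed set of pathway genes, up to 3 further genes per list with the largest mean change at day 28 over both treatments, and the 10 most like the members. Ltb and dim markers outside the rule are named from counts.

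The 10 group means of each probe set were estimated in limma (version 3.58.1, run in R 4.3.3), with moderated two-sided t and F tests and Benjamini-Hochberg adjustment over 36685 probe sets. The script was tested on simulated data. Depth does not apply to arrays, and their number limits the precision. The labels name the animal, so replicate numbers pair the days, and the rat as a replicate block was an alternative (consensus correlation 0.0319). It left each count of called members as it was, for example 4 at MIA day 28. With a single correlation so near 0 for all probe sets, it was close to the unpaired fit. Plots come from matplotlib 3.10.9 (Python 3.11.15).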

Additional observations from a re-analysis of the deposited data

Results flagged for a closer look

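In 70 groups of a member, treatment and day, the distance of the highest or lowest rat to the nearest other was compared with Dixon's critical value, which chance passes in about 1 of 20 groups, and 2 groups passed. Gzma in MIA day 28 replicate 6 read 5.62 where the other 5 rats read 4.98 to 5.18. The dim Gzmf in naive day 14 replicate 1 read 1.59 where the other 3 rats read 1.08 to 1.10.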

How the results depend on the processing

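With all 50 arrays, members called at days 21 and 28 fell to 0 in both treatments. With a rat left out, called members ranged from 2 to 4 at MIA day 21, 3 to 4 at MIA day 28, 0 to 1 at naive day 21 and 0 to 3 at naive day 28. Of all 36685 probe sets, 6 to 78, 104 to 1183, 1 to 17 and 32 to 467 were called higher in these fits, in this order. The median r between members that are not dim, group means removed, ranged from 0.472 to 0.654. In a fit with the rat as a replicate block, 3 members were called at MIA day 21 and 4 at MIA day 28. At naive days 21 and 28 it was 1 and 3, the same counts as without the block. Of all probe sets, 86, 1086, 29 and 543 were called higher in the block fit, in this order, against 47, 877, 14 and 425 without it. The correlation of 0.0319 was shared by all probe sets, so this fit was close to the unpaired one. The shares between rats were 0.28 to 0.52 for Gzma, Gzmk, Nkg7, Gzmb and Prf1, and pairing at those values was not tested. In the member comparisons between treatments no setting gave a call, and the values that turned sign follow. The cause was not tested. On the linear scale the MIA minus naive change was −2.33 signal units (day 21) and −6.14 (day 28) for Gzma, −7.74 and −7.80 for Gzmk, and −1.05 and −3.52 for Nkg7. With all 50 arrays the day 21 log2 difference was −0.39 for Gzmk, −0.72 for Prf1, −0.24 for Nkg7 and −0.17 for Gzmm. With array weights Gzma at day 14 was 0.13, and with arrays shifted to the same median Gzmm at day 2 was 0.0239. With a rat left out, differences turned sign within these ranges: Gzma day 14, −0.29 to 0.17; Gzmk day 2, −0.0367 to 0.205, and day 21, −0.0912 to 0.461; Gzmm day 2, −0.12 to 0.11, and day 28, −0.00711 to 0.266; Gzmf day 2, −0.0260 to 0.211, day 14, −0.0380 to 0.225, and day 0 level, −0.00947 to 0.305; Prf1 day 28, −0.30 to 0.13; Nkg7 day 28, −0.12 to 0.30. Signal near background limits Gzmf and Gzmb.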
